A study of Mus musculus with 6 samples.

Results

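Fc receptors bind the constant part of antibodies, and the genes described here are 10 of this kind in the mouse: Fcgr1, Fcgr3, Fcgr4, Fcgr2b, Fcgrt and Fcer1a, the signalling chain gene Fcer1g, and the Fc receptor-like or related genes Fcrl5, Fcrla and Fcmr. They were chosen by name, and a probe set counted as one of theirs where the platform annotation gave that symbol alone. Of the 10 genes, 9 had such a probe set, 1 each, out of 19938 genes with a probe set of their own on the array. Fcgrt, which encodes the neonatal Fc receptor, was not analysed here. Gene expression was measured on 6 Affymetrix arrays, 1 per mouse, in CD4+ dendritic cells (DC) isolated from spleen. The 3 Runx3-/- mice lacked the transcription factor Runx3 from the germline, so that every cell of the animal was without it, and the 3 WT mice were Runx3+/+. All 6 were males aged 6 weeks, taken as 3 littermate pairs, and the replicate number gives the litter. After enrichment with magnetic beads, CD11c+ MHCII+ cells were sorted by CD4 and CD8, and the labels name an Esam population without giving an Esam gate.

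Activating Fc gamma receptors take up IgG immune complexes and signal through an immunoreceptor tyrosine-based activation motif (ITAM), which for Fcgr1, Fcgr3 and Fcgr4 lies on the gamma chain encoded by Fcer1g. Fcgr2b is the inhibitory Fc gamma receptor and carries an inhibitory motif (ITIM) in its own tail. On DC the balance between the activating and the inhibitory receptors is known to set how antibody-bound antigen is taken up and how strongly the cell matures.

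The values are log2 probe set signals, and a level of 6.5 was the study's background. The targeted gene checked the labels: Runx3 had values of 9.16, 9.30 and 9.16 in Runx3-/- arrays, against 11.24, 11.22 and 11.11 in WT arrays. Runx3 transcript signal was lower in every Runx3-/- array, by a log2 change of -1.98 ± 0.08 (SE; limma adjusted p = 0.00270, and 0.0609 with the litter as a block). The exact two-sided permutation p was 0.1, the smallest that 3 against 3 arrays allow. The signal in Runx3-/- arrays stayed above background, and whether the probes lie within the deleted part of the gene was not tested. Array medians lay between 6.57 and 6.65, and 50.7% to 51.3% of probe sets reached background.

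Among the members, 8 reached background in at least 1 array and were tested, and Fcer1a was below it in all 6. All 8 tested members had a higher mean in Runx3-/- CD4+ DC than in WT CD4+ DC. Their median log2 change was 0.55, against -0.03 over the 9922 genes tested (0.49 over the 9 members measured). This count depends on the filter: Fcrla was tested only through 1 Runx3-/- array, and the untested Fcer1a changed by -0.03. By limma, 0 of the 8 passed an adjusted p of 0.05, where 2.27% of all tested genes did in either direction. At the study's own thresholds, an unadjusted p of at most 0.05 and at least 1.5-fold, 3 members passed as higher (Fcrl5, Fcgr1 and Fcgr3) and 0 as lower, where 3.05% of all tested genes passed as higher. By unadjusted p alone 5 of the 8 passed, all of them higher (Fcrl5, Fcgr1, Fcgr3, Fcgr4 and Fcmr), where 7.59% of all tested genes passed as higher. In the same 5 genes every Runx3-/- array lay above every WT array, which held for 9.86% of all tested genes. Because these are bulk samples, fewer cells of a type and less RNA per cell cannot be told apart. Some receptors of the family are related in sequence, and cross-hybridisation between their probe sets was not tested.

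The sequences upstream of 4 members are shown, those with the largest changes among the members whose groups did not overlap. They were thus not picked independently of the values. Of the 2 motifs marked, RUNX proteins bind TGTGGT and the myeloid factor PU.1 binds GAGGAA. Each line holds the 150 bases before the annotated RefSeq start of the gene (assembly GRCm38.p6), read 5′ to 3′ on the gene's strand, with matches to either motif in capitals on either strand. Fcrl5 is chr3:87435632-87435781 on the plus strand, Fcgr1 is chr3:96293970-96294119 on the minus strand, Fcgr3 is chr1:171059395-171059544 on the minus strand and Fcgr4 is chr1:171018776-171018925 on the plus strand. RefSeq gives 2 close starts for Fcgr3, of which 1 is shown.
Fcrl5: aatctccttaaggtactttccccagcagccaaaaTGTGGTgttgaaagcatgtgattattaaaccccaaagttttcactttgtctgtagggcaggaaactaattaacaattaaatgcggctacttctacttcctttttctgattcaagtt
Fcgr1: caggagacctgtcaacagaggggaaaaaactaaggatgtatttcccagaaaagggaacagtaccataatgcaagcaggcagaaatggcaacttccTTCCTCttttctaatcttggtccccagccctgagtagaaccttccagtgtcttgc
Fcgr3: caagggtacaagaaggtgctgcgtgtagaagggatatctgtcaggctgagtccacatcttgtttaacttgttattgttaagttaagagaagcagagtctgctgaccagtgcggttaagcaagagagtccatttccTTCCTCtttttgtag
Fcgr4: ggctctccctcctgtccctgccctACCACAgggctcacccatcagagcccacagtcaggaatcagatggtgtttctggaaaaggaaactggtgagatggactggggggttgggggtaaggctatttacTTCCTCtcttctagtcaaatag
Fcrl5 has TGTGGT at -116, counted from the start, and no GAGGAA. Fcgr4 has both motifs, each on the opposite strand, ACCACA at -126 and TTCCTC at -22. Fcgr1 and Fcgr3 have only TTCCTC, the reverse complement of GAGGAA, at -55 and -15. Searched over 250 bases before the start, on both strands, TGTGGT was found in 3 of the 10 member genes and in 14.0% of the 32851 RefSeq promoter windows. GAGGAA was found in 6 of the 10 and in 23.3% of the windows. Of the members not shown, Fcer1g, Fcgr2b and Fcgrt had neither motif, and Fcrla and Fcmr had only GAGGAA. Fcer1a, below background in all arrays, had both. The members that passed the study's thresholds thus include genes with and without either set of letters, and a match describes the sequence only.

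**Figure D1:**
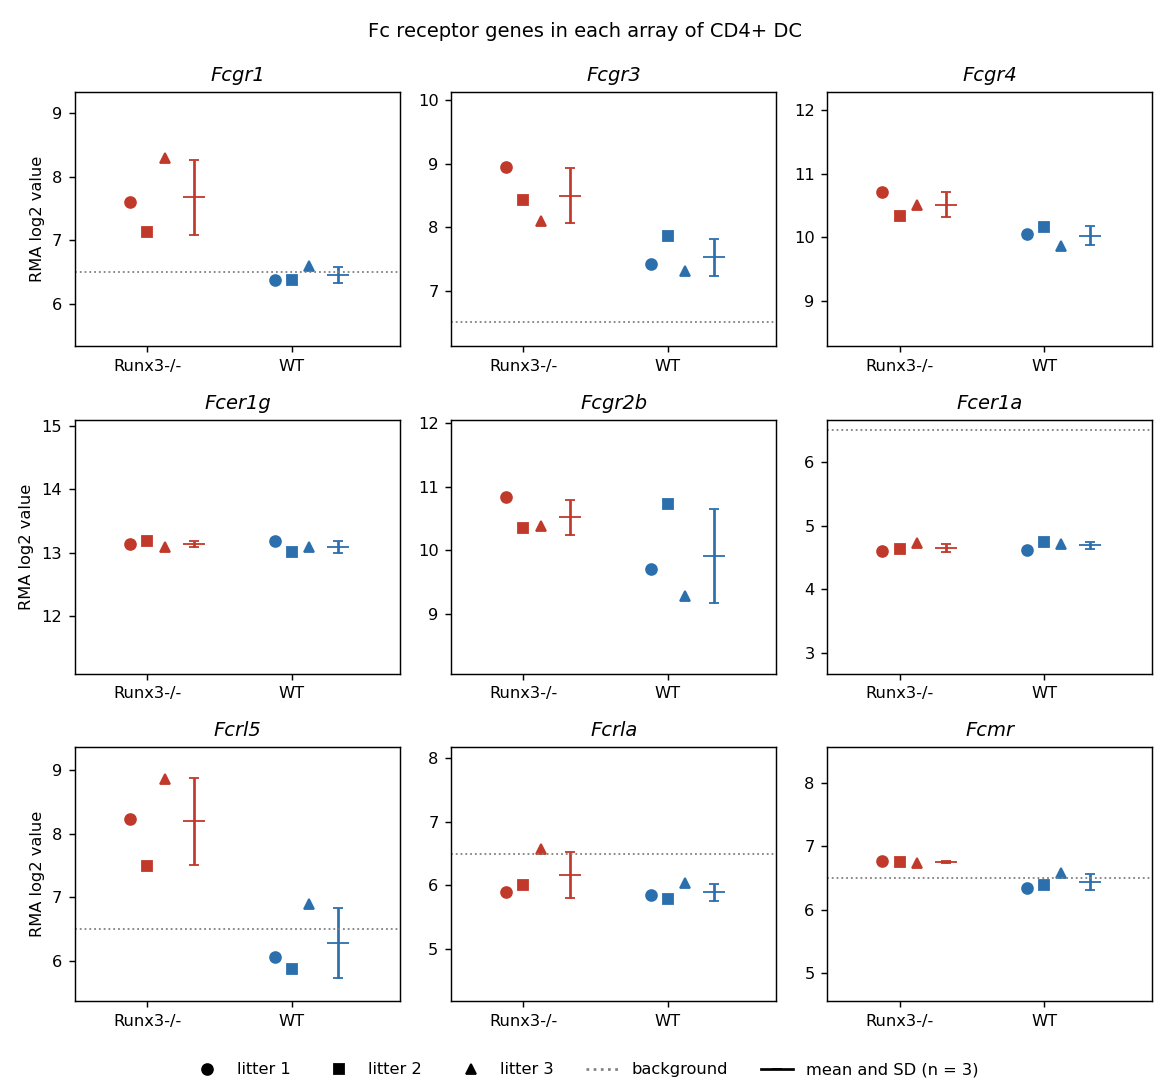
Log2 signal (RMA, y axis, each panel spanning the same number of log2 units) of the 9 measured Fc receptor genes in each Runx3-/- array (red, left) and WT array (blue, right), with symbols for the 3 litters, the group mean and SD (n = 3) and the background of 6.5 (dotted, where it falls in the panel). The groups are apart for Fcgr1, Fcgr3, Fcgr4, Fcrl5 and Fcmr and overlap for Fcer1g, Fcgr2b, Fcer1a and Fcrla.

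The 3 ligand-binding chains of the activating IgG receptors were each higher in all Runx3-/- arrays than in any WT array. Fcgr1 encodes the high-affinity receptor for monomeric IgG (probe set 10500335). Fcgr1 signal was 7.60, 7.13 and 8.30 in Runx3-/- arrays, against 6.38, 6.38 and 6.60 in WT arrays, of which 1 reached background. The Runx3-/- array of litter 3 was the highest, and the groups did not overlap. The change of Fcgr1 was 1.22 ± 0.28 on the log2 scale (SE; 95% interval 0.54 to 1.91), or 2.34-fold (at least 2.21-fold with WT values below background set to background), with a limma p of 0.00453 and an adjusted p of 0.112. Without the Runx3-/- array of litter 3 the change was 0.91.

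Fcgr3, a low-affinity activating receptor for immune complexes (probe set 10360040), had 8.95, 8.43 and 8.10 in Runx3-/- arrays, against 7.42, 7.85 and 7.30 in WT arrays. Here litter 1 held the highest Runx3-/- value, and again no values overlapped between the genotypes. The log2 change was 0.97 ± 0.25 (SE; 95% interval 0.37 to 1.57), a 1.95-fold difference with a limma p of 0.00736 and an adjusted p of 0.140.

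Fcgr4, which in the mouse binds IgG2a and IgG2b complexes (probe set 10351509), had 10.72, 10.33 and 10.50 in Runx3-/- arrays, against 10.05, 10.17 and 9.86 in WT arrays. Its groups were apart, but the lowest Runx3-/- and the highest WT array, littermates of litter 2, were only 0.16 apart. The log2 change of 0.49 ± 0.13 (SE; 95% interval 0.18 to 0.80) amounts to 1.40-fold, below the study's fold threshold (limma adjusted p = 0.147).

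Fcer1g, the gamma chain that these receptors need to reach the cell surface and to signal (probe set 10360070), had 13.14, 13.18 and 13.08 in Runx3-/- arrays, against 13.18, 13.00 and 13.08 in WT arrays. Its values overlapped between genotypes, with a log2 change of 0.05 ± 0.08 (SE; 95% interval -0.14 to 0.23; limma adjusted p = 0.813). The interval leaves room for a small change in either direction.

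Fcgr2b, the inhibitory receptor (probe set 10360028), had 10.84, 10.35 and 10.38 in Runx3-/- arrays, against 9.71, 10.73 and 9.29 in WT arrays. The WT array of litter 2 stood far above its group and above 2 of the Runx3-/- arrays. The log2 change was 0.61 ± 0.37 (SE; 95% interval -0.28 to 1.51), 1.53-fold, with a limma adjusted p of 0.481. Without that WT array the change was 1.02, past the study's thresholds with an adjusted p of 0.120, and without the WT array of litter 3 it was 0.30.

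The activating receptors were also set against the gamma chain and the inhibitory receptor within each array, by the difference of their log2 values, in 6 pairs chosen after the values had been seen. The difference Fcgr1 minus Fcer1g was 1.18 larger in Runx3-/- than in WT arrays, and Fcgr3 minus Fcer1g was 0.92 larger, with no overlap between genotypes in either (exact two-sided permutation p = 0.1, adjusted p = 0.3 over the 6 pairs). For Fcgr4 minus Fcer1g the difference was 0.44 larger and the groups overlapped (exact permutation p = 0.2, adjusted p = 0.3). Against Fcgr2b, Fcgr1 moved by 0.61 more, Fcgr3 by 0.35 more and Fcgr4 by -0.12, all with overlapping groups (exact permutation p of 0.4, 0.2 and 0.8). By litter, Fcgr1 minus Fcgr2b was larger in the Runx3-/- mouse in all 3 (0.10, 1.13 and 0.60), while the differences for Fcgr3 and Fcgr4 against Fcgr2b changed sign between litters. This permutation test cannot go below 0.1 with 3 against 3 arrays, so its p-values say little about these pairs.

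Fcer1a encodes the IgE-binding alpha chain of the high-affinity IgE receptor (probe set 10360338). Its signal was 4.60, 4.63 and 4.73 in Runx3-/- arrays, against 4.62, 4.74 and 4.71 in WT arrays, below background throughout, and it was not tested. Ms4a2, the beta chain of the same receptor, was likewise below background in all 6 arrays.

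Fcrl5, a surface Fc receptor-like protein known in the mouse from marginal zone and B-1 B cells (probe set 10492983), had the largest change of the members. Its signal was 8.24, 7.49 and 8.86 in Runx3-/- arrays, against 6.06, 5.87 and 6.90 in WT arrays. Only the WT array of litter 3 reached background, and in both genotypes litter 3 was the highest and litter 2 the lowest. The log2 change was 1.92 ± 0.41 (SE; 95% interval 0.93 to 2.91), or 3.78-fold, and at least 2.95-fold where WT values below background are set to background. Its limma p was 0.00301 with an adjusted p of 0.0925, and with the litter as a block 0.000102 with an adjusted p of 0.0744. Without the Runx3-/- array of litter 3 the change was 1.59.

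Fcrla, an intracellular Fc receptor-like protein of B-lineage cells (probe set 10360018), had 5.90, 6.01 and 6.57 in Runx3-/- arrays, against 5.85, 5.78 and 6.04 in WT arrays. It was tested only because the Runx3-/- array of litter 3 passed background, and its log2 change of 0.27 ± 0.19 (SE; limma adjusted p = 0.541) came with overlapping groups. Fcmr, the Fc receptor for IgM (probe set 10349593), had 6.78, 6.75 and 6.74 in Runx3-/- arrays, against 6.35, 6.40 and 6.58 in WT arrays, of which 1 reached background. All its values were thus close to background, and the groups did not overlap. The change of Fcmr was 0.31 ± 0.08 (SE; 95% interval 0.11 to 0.51), 1.24-fold (at least 1.17-fold with WT values below background set to background), with a limma p of 0.00873 and an adjusted p of 0.149.

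**Figure D2:**
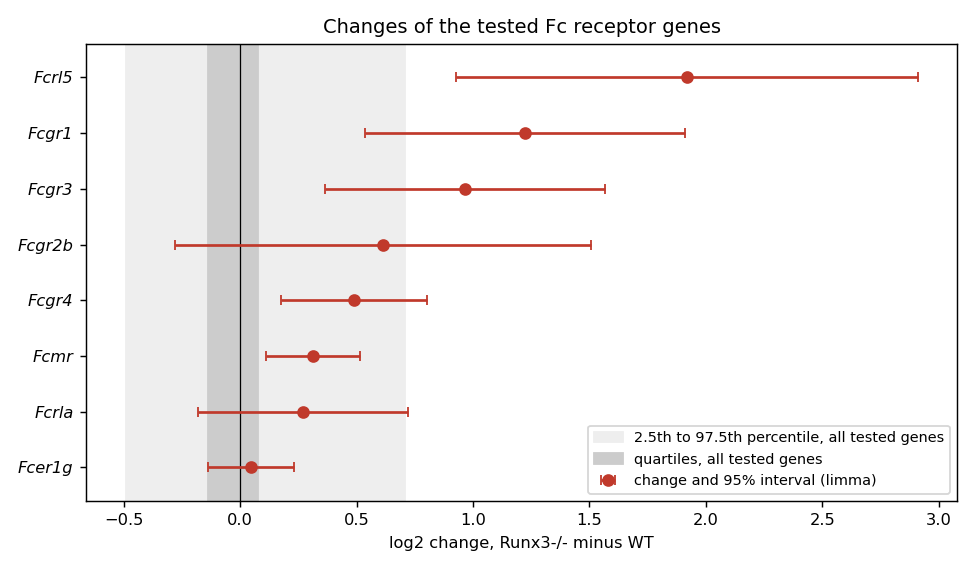
Log2 change (x axis, Runx3-/- minus WT) of the 8 tested Fc receptor genes with 95% intervals from limma, over the quartiles (dark band, -0.14 to 0.08) and the 2.5th to 97.5th percentiles (light band, -0.49 to 0.71) of all tested genes. Fcrl5, Fcgr1 and Fcgr3 lie beyond the light band, and the intervals of Fcgr2b, Fcrla and Fcer1g span 0.

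Within litters the size of the changes differed. Fcrl5 was higher in the Runx3-/- littermate by 2.18 in litter 1, 1.62 in litter 2 and 1.96 in litter 3, and Fcgr1 by 1.22, 0.76 and 1.70. Fcgr3 was higher by 1.53, 0.57 and 0.79 in litters 1 to 3, and Fcgr4 by 0.66, 0.16 and 0.64. Fcgr2b was higher by 1.12 in litter 1 and 1.09 in litter 3 but had a difference of -0.37 in litter 2. For these 5 genes the smallest difference was in litter 2. Altogether 6 of the 8 tested members were higher in the Runx3-/- littermate in all 3 litters, where 19.3% of all tested genes were. The others were Fcgr2b and Fcer1g, and the 6 include Fcrla, which no WT array measured above background.

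**Figure D3:**
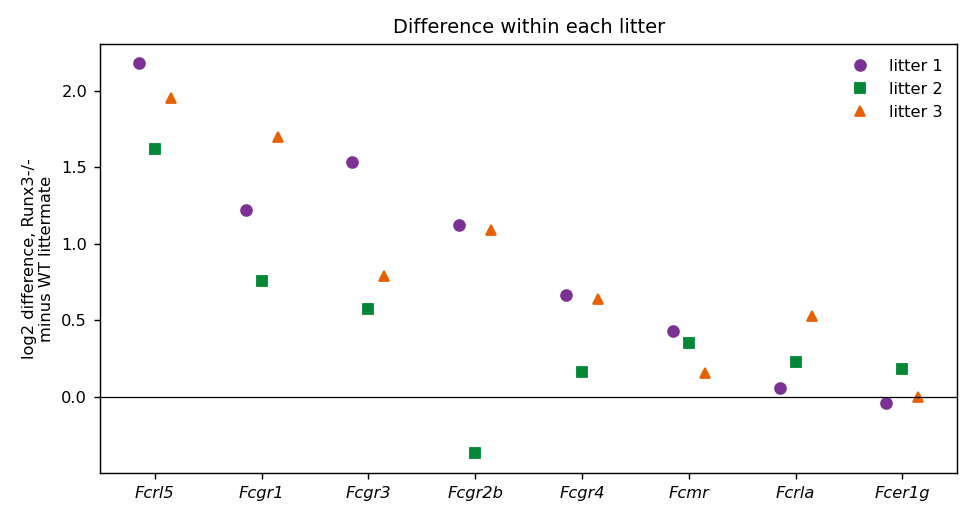
Log2 difference between the Runx3-/- mouse and its WT littermate (y axis) for the 8 tested Fc receptor genes in each of the 3 litters (symbols). Litter 2 is lowest for Fcrl5, Fcgr1, Fcgr3, Fcgr2b and Fcgr4, and Fcgr2b is below 0 there.

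The genes around the receptors were followed in 5 lists. Of 8 other Fc and immunoglobulin receptors, 3 were above background and 0 passed the adjusted threshold by limma (1 was higher by unadjusted p), with a median log2 change of 0.27. Fcer2a, the low-affinity IgE receptor CD23, had 7.09, 7.82 and 7.64 in Runx3-/- arrays, against 6.86, 7.02 and 6.94 in WT arrays, a change of 0.58 ± 0.19 (SE; limma adjusted p = 0.220) without overlap. Fcrl1, the B cell neighbour of Fcrl5 on chromosome 3, changed by 0.27 without overlap and did not pass an unadjusted p of 0.05. Trim21, the cytosolic antibody receptor, changed by -0.28 and was lower in the Runx3-/- mouse of all 3 litters, with a limma p of 0.128, and 0.0176 with the litter as a block. Fcrl6, Fcrlb, Fcrls, Fcamr and Pigr were below background in all arrays. Of the 4 partner chains, B2m, the light chain shared by the neonatal Fc receptor, and Tyrobp, the adaptor DAP12, each changed by 0.01, and Ms4a2 and Cd247 were below background.

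Among receptors other than Fc receptors that pair with the gamma chain, 2 of 12 listed genes were above background, and their median log2 change was 1.33. Tarm1, a receptor of myeloid cells, had 10.57, 10.07 and 10.52 in Runx3-/- arrays, against 8.54, 8.51 and 8.64 in WT arrays. Tarm1 rose by 1.82 ± 0.14 (SE), 3.53-fold, with a limma adjusted p of 0.0127, and 0.0697 with the litter as a block. Clec4n, the fungal-wall receptor Dectin-2, had 11.44, 10.70 and 10.12 in Runx3-/- arrays, against 10.27, 10.31 and 9.17 in WT arrays, a change of 0.84 ± 0.43 (SE) with overlapping groups. Its limma p was 0.0985, and 0.00838 with the litter as a block, where Clec4n at 1.79-fold passed the study's thresholds but not the adjusted one. Clec4e, Clec4d, Oscar and Ncr1 were below background, and the annotation named no probe set for the other 6 listed genes alone.

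Of 22 genes of ITAM signalling 20 were tested, of which 10 had a positive and 10 a negative change (median -0.01). By limma 0 passed the adjusted threshold, where 2.27% of all tested genes did in either direction. At an unadjusted p of 0.05, 4 were higher and 3 lower, where 1928 of the 9922 tested genes passed, 753 of them as higher. At the study's thresholds 2 passed, both higher, where 3.05% of all tested genes passed as higher. One was Fyn, a Src-family kinase that phosphorylates ITAMs, which changed by 0.59 ± 0.13 (SE; limma adjusted p = 0.0984). The other, Blnk, an adaptor downstream of Syk, reached background in 0 of 3 WT arrays and was tested only through the Runx3-/- arrays. Set against background, Blnk was at least 1.21-fold higher, which is below the fold threshold (limma adjusted p = 0.0719). Card9, the adaptor through which Syk-coupled receptors reach NF-kappaB, changed by -0.36 ± 0.07 (SE) and Vav3 by -0.29 ± 0.07 (SE), neither past the adjusted threshold. Syk itself, the kinase that docks on phosphorylated ITAMs, changed by 0.17 ± 0.10 (SE).

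All 11 listed ITIM effectors and negative regulators were tested, with a median log2 change of -0.08. The 1 gene past the adjusted threshold was Dok3, an adaptor that dampens immunoreceptor signals, with 7.60, 7.53 and 7.59 in Runx3-/- arrays, against 6.78, 6.72 and 6.66 in WT arrays. Dok3 rose by 0.85 ± 0.07 (SE), 1.81-fold, with a limma adjusted p of 0.0127, and 0.0744 with the litter as a block. Inpp5d, the phosphatase SHIP1 that Fcgr2b recruits, changed by -0.17 ± 0.07 (SE) with a limma p of 0.0467, and 0.0696 with the litter as a block. Pag1, which anchors the kinase Csk, changed by 0.48 ± 0.12 (SE), and neither passed the adjusted threshold. Dok2 reached background in 0 of 3 WT arrays, and its change is not given.

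**Figure D4:**
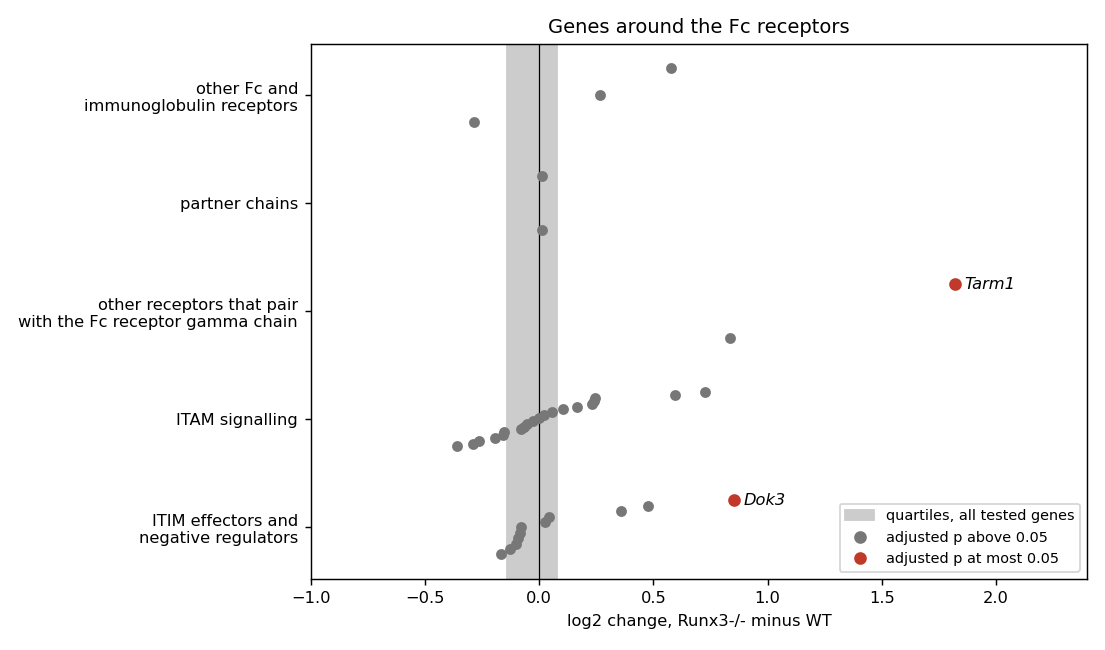
Log2 change (x axis, Runx3-/- minus WT) of the tested genes of the 5 lists around the Fc receptors, 1 point per gene, over the quartiles of all tested genes (grey band). Tarm1 at 1.82 and Dok3 at 0.85 are the 2 genes past the adjusted threshold (red).

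Of the members, 4 lie in 1 cluster on chromosome 1, in the gene order Fcrlb, Fcrla, Fcgr2b, Fcgr4 and Fcgr3, with Gm10522 beside Fcgr4. The gene flanking it on the side of Fcrlb, Dusp12, a phosphatase gene, changed by 0.02 ± 0.15 (SE), and Cfap126 on the side of Fcgr3 was below background in all arrays. On chromosome 3, next to Fcrl1 and Fcrl5, Cd5l, a secreted macrophage protein, had 6.96, 6.78 and 6.96 in Runx3-/- arrays, against 6.18, 6.00 and 5.69 in WT arrays, 0 of 3 of which reached background. Cd5l, tested only through the Runx3-/- arrays, was at least 1.32-fold higher against the background level (limma adjusted p = 0.0373, and 0.104 with the litter as a block). Etv3, the neighbour on the other side, changed by 0.36 ± 0.12 (SE) without overlap, with a limma p of 0.0196 and an adjusted p of 0.212. Beside Fcgr1, the histone gene H2bc18 changed by 0.26 ± 0.14 (SE) and Terc, the telomerase RNA, by -0.26 ± 0.12 (SE), neither past an unadjusted p of 0.05. The groups overlapped for H2bc18 and were apart for Terc. The neighbours of Fcer1g, Fcer1a and Fcmr were below background.

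Many Fc receptors are also known from other cells of the spleen, and marker lists of 11 cell types were therefore summed on the linear scale in each array. The 11 markers of CD4+ DC summed to between 56207 and 60076 in Runx3-/- arrays and between 58646 and 61823 in WT arrays, and by limma 0 passed the adjusted threshold (1 was higher and 3 were lower by unadjusted p). The red pulp macrophage list summed to between 15567 and 18473 in Runx3-/- arrays and between 8883 and 11755 in WT arrays. Of its 10 tested genes 6 rose by limma adjusted p (Spic, C1qa, C1qb, C1qc, Mertk and Axl). Adgre1, a macrophage surface marker, changed by 0.01 and Hmox1 by 0.22, both with overlapping groups, Vcam1 and Slc40a1 were apart but did not pass the adjusted threshold, and Cd163, a scavenger receptor of these macrophages, was below background in all arrays. The monocyte list summed to between 11833 and 12286 in Runx3-/- arrays and between 6505 and 8476 in WT arrays. Of its 7 genes 1 rose, Cx3cr1, and in 6 the Runx3-/- arrays all lay above the WT arrays. Of all tested genes, 2.27% passed the adjusted threshold in either direction, and in 9.86% the Runx3-/- arrays all lay above the WT arrays. With the litter as a block the calls in both lists, like all others over the array, missed the threshold. The red pulp macrophage and monocyte sums, like Fcgr1, Fcgr3 and Fcgr4, were higher in every Runx3-/- array than in any WT array. This was not particular to these 2 lists, as it also held for the plasmacytoid DC and CD8+ DC sums. It held too for the NK cell sum (265 to 275 against 252 to 255), whose genes were all below background. Within a genotype the order of the arrays differed. Among Runx3-/- arrays the red pulp macrophage and monocyte sums were lowest in litter 3, where Fcgr1 was highest, Fcgr3 was lowest and Fcgr4 lay between. The part of the sums in the receptors' values was not tested.

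Plasmacytoid DC markers summed to between 1623 and 4005 in Runx3-/- arrays and between 1443 and 1554 in WT arrays. The highest was the Runx3-/- array of litter 3, in which Fcgr1, Fcrl5 and Fcrla were highest too. The other tested members differed: among Runx3-/- arrays, Fcgr3, Fcmr and Fcer1g were lowest there, and Fcgr4 and Fcgr2b lay between. The part of the plasmacytoid DC markers in the members' values was not tested. CD8+ DC markers summed to between 2112 and 2620 in Runx3-/- arrays and between 1688 and 1837 in WT arrays, with 1 gene higher by adjusted p (Cadm1) and Itgae below background. Their sum, too, was highest in the Runx3-/- array of litter 3. B cell markers, of interest for Fcrl5, Fcrla and Fcmr, summed to between 4219 and 4557 in Runx3-/- arrays and between 4743 and 4894 in WT arrays. The list did not move one way: by unadjusted limma p 1 of its 6 tested genes was higher (Cd79b, a chain of the B cell receptor, by 0.58 and without overlap) and 3 were lower (Blk, Cd22 and Cr2). Blk was the 1 B cell gene past the adjusted threshold, as lower, Ms4a1, which encodes CD20, changed by 0.58 with overlap, and Pax5, Ebf1 and Vpreb3 were below background in all arrays. The immunoglobulin and plasma cell list, of which 6 of 14 genes could be read, summed to between 388 and 497 in Runx3-/- arrays and between 397 and 545 in WT arrays. All 7 NK cell markers and all 7 mast cell and basophil markers were below background in every array, as were 6 of 7 neutrophil and 5 of the 6 T cell markers measured. The neutrophil sum was between 254 and 389 in Runx3-/- arrays and between 229 and 258 in WT arrays, and the T cell sum between 768 and 867 in Runx3-/- arrays and between 780 and 966 in WT arrays.

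**Figure D5:**
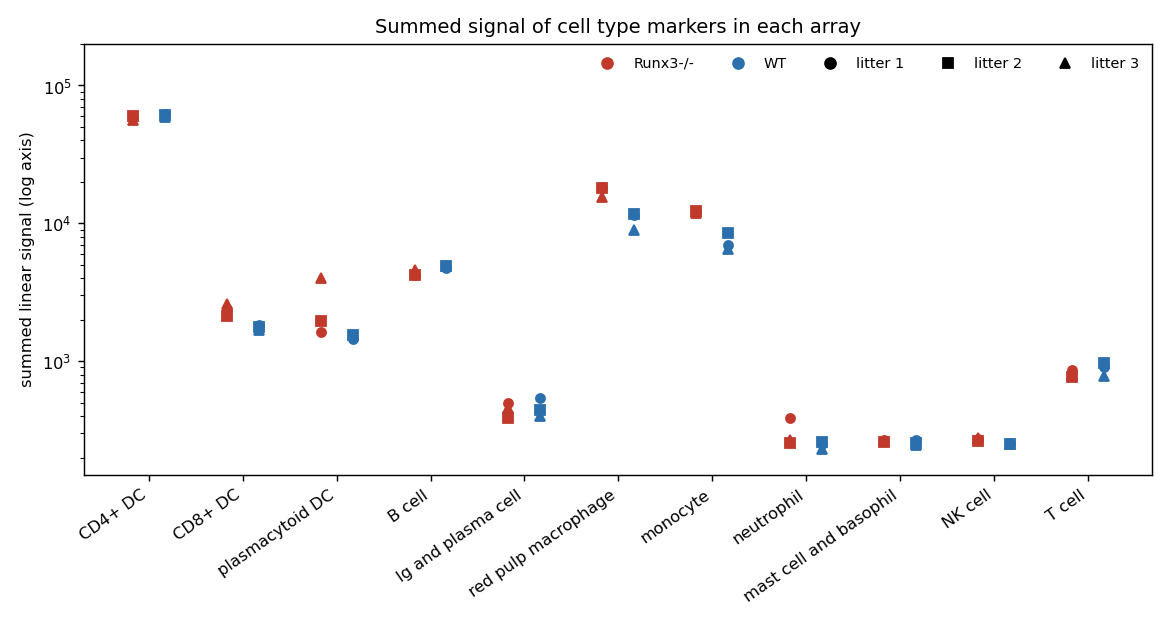
Summed linear signal of the markers of 11 cell types in each array (log axis), Runx3-/- in red on the left and WT in blue on the right, with symbols for the litters. The red pulp macrophage, monocyte, CD8+ DC, plasmacytoid DC and NK cell sums are higher in all Runx3-/- arrays, the last from genes below background. The B cell sums are lower, and the plasmacytoid DC sum is highest in the Runx3-/- array of litter 3.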

How the data were processed

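Total RNA of sorted CD4+ splenic DC was hybridised to Affymetrix arrays. The authors imported the CEL files into Partek Genomics Suite and summarised probe sets by GC-corrected RMA (robust multichip average). The deposited values are log2 signals. Versions of this software were not given in the sources used here, and the submitters' notes name build mm9. RMA forces arrays onto a common distribution, which would hide a change shared by most genes. An exon array is named in the methods, but the probe set identifiers belong to a gene-level array, and the labels and the methods name different RNA kits. Of 35399 probe sets, 21789 had 1 gene symbol, 1621 several and 11989 none.

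Probe sets that reached 6.5 in at least 1 array were tested (19149 probe sets, 9922 genes with 1 symbol, the probe set with the highest mean standing for a gene). Runx3-/- and WT arrays (3 each) were compared with limma 3.58.1 in R 4.3.3 (lmFit and eBayes, two-sided, genotype only), with Benjamini-Hochberg adjustment over all tested probe sets. This step was tested on simulated data. The number of arrays limits the precision. The labels give the litters, and the pairing rests on them. Deviations from the group means correlated within litters at 0.158, 0.102 and 0.246, and between litters at -0.23 to 0.103. The value within litter 2 was thus not above all of those between litters, so these correlations do not establish the pairing. Fits with the litter as a block are given where they change a call.

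The text names all members, Runx3, the genes on either side of each member or cluster, up to 4 genes of each pathway list by unadjusted p, and from marker lists those past the adjusted threshold. The rule also allows the 2 brightest genes of each marker list, of which some are named (such as Adgre1, C1qb and Cd22). The others are given only within the sums. Syk was named beyond this rule, after its values were seen, as were other markers not past the adjusted threshold. The members, lists and pairs were chosen with earlier results of these data known. Alternatives changed the filter, the normalization, the variance model, the test, the block, the probe set of a gene and the arrays included. Promoter windows came from RefSeq (GRCm38.p6), a build other than mm9, and no array coordinates are given.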

Additional observations from a re-analysis of the deposited data

How the results depend on the processing

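Under all 15 alternatives (another filter or none, quantile normalization, median centring, another variance model, the methods' one-way test, the lowest probe set of a gene, the litter block and each array left out), 0 Fc receptor genes passed the adjusted threshold and none reversed. The filter, variance model, test and block leave the log2 change as it is, and each member has 1 probe set. Only the normalizations and the left-out arrays could thus have reversed a member. The 3 genes past the study's thresholds (Fcrl5, Fcgr1, Fcgr3) passed in all 15 alternatives, and without the WT array of litter 2 Fcgr2b made 4. Ranges of the log2 change were 1.59 to 2.27 for Fcrl5 (adjusted p 0.0661 to 0.298), 0.91 to 1.496 for Fcgr1 (0.0587 to 0.328), 0.74 to 1.16 for Fcgr3 (0.117 to 0.389), 0.39 to 0.58 for Fcgr4 (0.115 to 0.373), 0.27 to 0.38 for Fcmr (0.112 to 0.437), 0.30 to 1.02 for Fcgr2b (0.120 to 0.767) and 0.22 to 0.40 for Fcrla (0.324 to 0.784, in the 13 that tested it).

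The pathway lists held 2 genes past the adjusted threshold (Tarm1 and Dok3), against 0 with the litter as a replicate block and 0 by the methods' one-way test. With 1 array left out their number lay between 0 (without Runx3-/- replicate 3 or WT replicate 1) and 2, with 1 (Tarm1) without Runx3-/- replicate 1. The change of Runx3 was -1.98 with the replicate block (adjusted p = 0.0609), and lay between -2.03 and -1.96 with 1 array left out, the call being lost without WT replicate 1 (adjusted p = 0.0532). Of all genes, 225 passed the adjusted threshold, against 0 with the block, 5 by the one-way test, and without a Runx3-/- array 33, 144 and 1 (replicates 1 to 3) and without a WT array 0, 98 and 59. The cause of these differences was not tested. With the block 2080 genes passed an unadjusted p of 0.05, against 1928 without it.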
